A study of Homo sapiens with 2 samples.

Results

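The 10 chemokine genes CXCL1, CXCL2, CXCL3, CXCL8, CXCL10, CXCL16, CCL2, CCL5, CCL20 and CCL28 were chosen by name from the 62699 genes with counts. Earlier results of these data were known when they were chosen. Polyadenylated RNA was sequenced from HCC1954, an established line of HER2-positive breast cancer cells, so both libraries come from the same tumour cells with an amplified ERBB2 gene. By genotype label 1 library was ASO-NC and 1 was ASO-1235, and the title of the second uses the prefix Si instead. The series asks what the long non-coding RNA LINC01235 does to transcription in this line. Since each group has 1 library, the differences have no replicates behind them. They are given without p-values and compare these libraries, not the conditions.

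Chemokines are small secreted proteins that bind receptors on leukocytes and draw these cells along a gradient. Members of the CXC family that carry a glutamate-leucine-arginine motif (CXCL1, CXCL2, CXCL3, CXCL8) act on neutrophils, whereas CXCL10 acts on activated T cells through the receptor CXCR3. Epithelial tumour cells make chemokines themselves, and transcription of many of them is driven by NF-kB, by interferon-activated factors, or by both.

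The promoters are shown because the members differ in the sequence elements that these factors bind. RefSeq entries (GRCh38.p14) matched 7 of the 10 genes, and CCL28 had 2 entries. Below are the 250 bases before the start of 6 genes, on the strand of the gene, for CXCL1 (chr4:73869143-73869392, plus), CXCL2 (chr4:74099196-74099445, minus), CXCL3 (chr4:74038690-74038939, minus), CXCL8 (chr4:73740319-73740568, plus), CCL20 (chr2:227813592-227813841, plus) and CXCL10 (chr4:76023498-76023747, minus). Capitals mark matches, on either strand, to GGAATTTCC, to the NF-kB consensus, to the AP-1 motif TGANTCA and to the core of the interferon-stimulated response element (ISRE), which is GAAA, any 2 bases and GAAA. Matches to the first 2 overlap where both occur.
CXCL1: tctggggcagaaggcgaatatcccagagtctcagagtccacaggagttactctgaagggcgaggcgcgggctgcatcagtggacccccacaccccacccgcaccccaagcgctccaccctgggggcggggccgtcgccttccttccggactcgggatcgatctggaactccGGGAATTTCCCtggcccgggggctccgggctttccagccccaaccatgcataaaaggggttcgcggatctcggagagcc
CXCL2: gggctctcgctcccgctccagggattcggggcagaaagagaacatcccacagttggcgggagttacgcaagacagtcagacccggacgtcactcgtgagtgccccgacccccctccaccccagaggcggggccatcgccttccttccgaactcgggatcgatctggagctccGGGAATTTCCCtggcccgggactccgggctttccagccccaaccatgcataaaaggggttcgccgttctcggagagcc
CXCL3: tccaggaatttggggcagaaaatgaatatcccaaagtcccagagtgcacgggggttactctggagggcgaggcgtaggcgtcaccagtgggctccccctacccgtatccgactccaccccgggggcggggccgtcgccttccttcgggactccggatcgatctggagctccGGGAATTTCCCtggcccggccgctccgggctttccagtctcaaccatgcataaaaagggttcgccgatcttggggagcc
CXCL8: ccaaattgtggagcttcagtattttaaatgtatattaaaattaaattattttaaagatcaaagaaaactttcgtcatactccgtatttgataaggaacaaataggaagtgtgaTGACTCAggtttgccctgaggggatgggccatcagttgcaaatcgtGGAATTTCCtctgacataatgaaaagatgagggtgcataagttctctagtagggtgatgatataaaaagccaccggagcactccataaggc
CCL20: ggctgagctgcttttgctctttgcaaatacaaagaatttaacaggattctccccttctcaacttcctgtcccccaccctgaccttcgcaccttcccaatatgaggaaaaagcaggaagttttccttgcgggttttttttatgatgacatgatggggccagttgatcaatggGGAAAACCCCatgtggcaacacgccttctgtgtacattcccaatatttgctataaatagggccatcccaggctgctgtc
CXCL10: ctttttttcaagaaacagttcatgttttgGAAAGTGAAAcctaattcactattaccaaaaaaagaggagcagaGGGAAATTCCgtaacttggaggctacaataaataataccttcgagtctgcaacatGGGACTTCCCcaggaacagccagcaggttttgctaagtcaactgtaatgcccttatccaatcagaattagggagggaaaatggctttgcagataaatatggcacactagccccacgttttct

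The motif GGAATTTCC was found in 5 of these promoters, those of CXCL1, CXCL2, CXCL3, CXCL8 and CXCL10, and in 0.413% of 35116 RefSeq promoter entries of the same length. It was searched after the sequences had been seen. In CXCL1 and CXCL3 it begins 78 bases before the start, in CXCL2 77 and in CXCL8 91 bases before it. CXCL10 holds it on the opposite strand, 176 bases before the start, and a further match to the NF-kB consensus at 122 bases. CCL20 matched the consensus alone, at 79 bases, and this consensus occurs in 9.96% of entries. An AP-1 match was found in CXCL8 alone, at 137 bases (6.57% of entries), and the ISRE core in CXCL10 alone, at 221 bases (3.02% of entries). The promoters of CXCL1 and CXCL3 were identical at 81.4% of aligned positions and those of CXCL1 and CXCL8 at 42.6%. Neither entry of CCL28 held any of the 4 motifs. A match describes the letters in this window and does not show that a factor binds there.

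**Figure D1:**
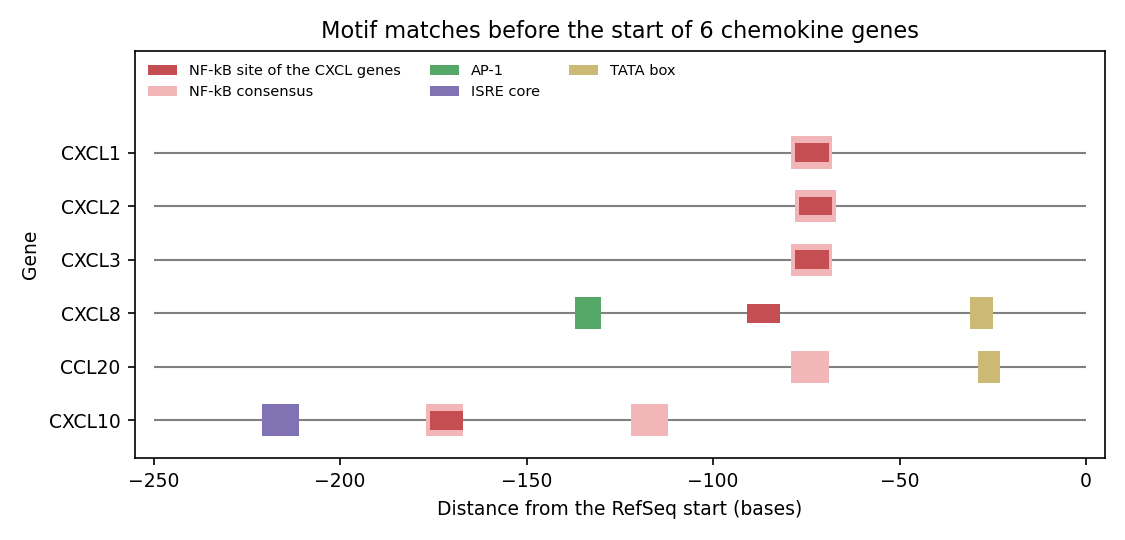
Motif matches in the 250 bases before the RefSeq start of 6 chemokine genes; the x axis is the distance from the start in bases, each line is 1 promoter, and coloured blocks are matches on either strand (TATA box: TATAAA). CXCL1, CXCL2 and CXCL3 hold an NF-kB match 77 to 79 bases before the start, CXCL8 at 91 bases, and CXCL10 has an ISRE core and 2 NF-kB matches further upstream.

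The 10 genes lie on 4 chromosomes in GENCODE 29 (GRCh38), the build named by the submitters' processing notes as hg38. CXCL8 (chr4:73740506-73743716), CXCL1 (chr4:73869393-73871242), CXCL3 (chr4:74036589-74038807) and CXCL2 (chr4:74097035-74099293) start within 359 kb of chromosome 4, a cluster that holds 9 chemokine genes. The other 5 of the cluster, CXCL6, PF4V1, PF4, PPBP and CXCL5, had at most 4 counts in either library. CXCL10 (chr4:76021117-76023497) lies 2.28 Mb from CXCL8, between CXCL9 and CXCL11. On chromosome 17 are CCL2 (chr17:34255218-34257203), CCL5 (chr17:35871491-35880793) and CXCL16 (chr17:4733526-4739922). CCL20 lies on chromosome 2 (chr2:227805739-227817564) and CCL28 on chromosome 5 (chr5:43376645-43412391).

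The depth was 48092494 counts for ASO-NC and 37916307 for ASO-1235. For LINC01235, the gene named in the series title, ASO-NC had 1337 counts and ASO-1235 had 0, or 373-fold lower with this 0 set to a floor of 3 counts. Levels are CPM, counts relative to the library total after TMM scaling, and ratios are ASO-1235 over ASO-NC. Each ratio has an exact 95% interval given the sum of both counts, which covers counting error only. For LINC01235 this interval reached up to a ratio of 0.0033. Even numbers made up 67.5% (ASO-NC) and 64.0% (ASO-1235) of the values from 1 to 1000. Both mates of a read pair may thus have been counted, and intervals on halved counts are given where they change a call.

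CXCL8, CCL20, CCL2, CXCL3 and CXCL1 were between 1.62-fold and 2.45-fold higher in the ASO-1235 library, CCL28 was 1.80-fold lower, and CCL5, CXCL10 and CXCL16 lay within 1.25-fold of equality. The minimum of 1 CPM in at least 1 library was reached by 9 of the 10 genes, all but CXCL2, and CXCL3 reached it in the ASO-1235 library alone. In RNA from a whole culture, fewer cells that express a gene and less RNA per cell cannot be told apart. A gene was called when it differed by at least 1.5-fold with an interval that excluded 1. Of the 9 genes 5 were called higher, where 6.40% of 14352 genes at 1 CPM were, and 1 was called lower, where 2.95% were. The genes were chosen with earlier results of these data known, so these shares describe the list and do not test it. Among the 8 genes that reached 1 CPM in both libraries the counts were 4 higher and 1 lower, beside 3.81% and 2.08% of the 13433 genes that did so. At 2-fold, CXCL8 and CCL20 were called higher (2.53% of all genes) and no chemokine gene lower (0.516%). On halved counts the call of CXCL3 was lost and 4 genes were higher, where 5.20% of all genes were, and CCL28 kept its call. Without the trend of the ratios on GC content and transcript length, 5 genes were higher and 1 lower, beside 5.73% and 2.03% of 14020 genes. At a minimum of 5 CPM, which 6 of the 10 genes reached, 3 were higher and 0 lower, beside 2.59% and 0.939% of 10757 genes. The median log2 ratio was 0.69 over the 9 genes, 0.50 over the 8 and 0.55 over all 10, beside 0.001 over the 14352 genes.

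**Figure D2:**
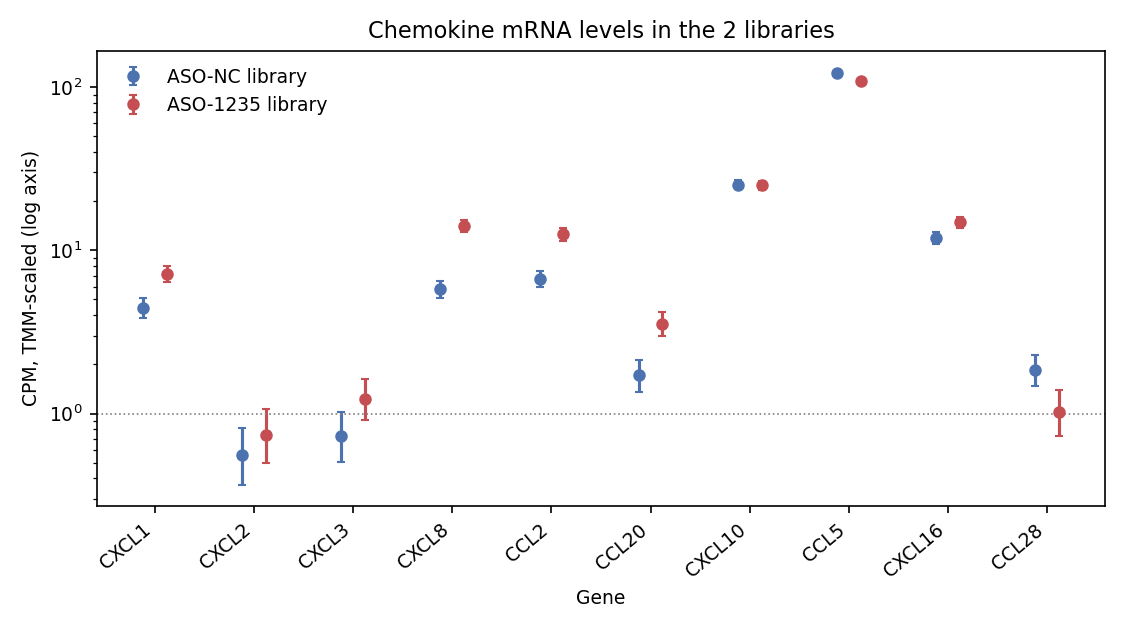
Level of each chemokine gene in the ASO-NC library (blue) and the ASO-1235 library (red), in TMM-scaled CPM on a log axis, with exact 95% Poisson intervals that cover counting error only; the dotted line marks 1 CPM. CCL5 is the most abundant in both libraries at 122 and 109 CPM, and CXCL2 lies below 1 CPM in both.

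Among the neutrophil chemokines CXCL8, which encodes interleukin 8, had the highest ratio, with an interval that lies above that of CXCL1 but overlaps those of CXCL3 and CXCL2. The intervals of CXCL8 and CXCL1 overlap on halved counts (1.99 to 3.04 and 1.25 to 2.11). They also overlap without the GC and length trend (1.79 to 2.41 and 1.34 to 1.93). ASO-NC held 270 counts of CXCL8 (5.78 CPM, 95% Poisson interval 5.11 to 6.51) and ASO-1235 held 554 (14.2 CPM, 13.03 to 15.4), which is a ratio of 2.45 (2.12 to 2.85). The Poisson intervals of the libraries do not overlap. Of the 1435 genes in the same decile of mean expression, 0.557% had a log2 ratio at least as high. Its transcript is poor in G and C (33.4% GC), and the 2804 genes in the fifth of lowest GC content had a median log2 ratio of 0.21. Without the GC and length trend the ratio of CXCL8 was 2.08 (1.79 to 2.41).

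CXCL1, a ligand of CXCR2, had 207 counts (4.43 CPM) and 280 counts (7.17 CPM), a ratio of 1.62 (1.35 to 1.95). In its decile of expression, 4.88% of 1435 genes were at least as high. CXCL3, a close paralogue, had 34 counts (0.728 CPM) and 48 counts (1.23 CPM), a ratio of 1.69 (1.07 to 2.701). On halved counts the interval of CXCL3 ran from 0.870 to 3.35 and included 1, so its call was lost, and 23.8% of the 1436 genes in its decile of expression were at least as high. CXCL2 had 26 counts (0.557 CPM) and 29 counts (0.743 CPM), a ratio of 1.33 (0.758 to 2.36) that did not exclude 1. A difference of this size was not detectable at these counts.

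The 3 paralogues resemble each other, with coding sequences identical at 93.5% of positions between CXCL1 and CXCL2, 90.7% between CXCL1 and CXCL3 and 94.4% between CXCL2 and CXCL3. Windows of 50 bases shared with another gene made up 5.73% of the CXCL1 transcript, 9.24% of CXCL2 and 5.26% of CXCL3, and 0 of the 1656 windows of CXCL8. How reads with several matches were counted is not given in the sources used here, so the split among the 3 is uncertain. Summed, CXCL1, CXCL2 and CXCL3 had 267 counts (5.72 CPM) and 357 counts (9.14 CPM), a ratio of 1.60 (1.36 to 1.88). Within each library, where no scaling enters, there were 130 counts of CXCL8 per 100 of CXCL1 in ASO-NC and 198 in ASO-1235, a change of 1.52-fold (exact conditional 95% interval 1.20 to 1.92). This change still holds the GC and length trend, without which the ratios of CXCL8 and CXCL1 were 2.08 and 1.61.

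The 3′ UTRs of these 4 mRNAs are dense in ATTTA, the core of the AU-rich elements through which cytokine mRNAs are degraded. The pentamer occurs 9 times in the 1252 bases of CXCL8, 10 times in CXCL2, 7 times in CXCL3 and 5 times in CXCL1. That is 7.19, 13.9, 10.4 and 7.08 per kilobase, where the median of 19046 protein-coding genes is 1.47 and 3.51%, 0.588%, 1.25% and 3.64% of genes are at least as dense. CCL20 had 6.24 per kilobase (5.30% of genes at least as dense), CCL2 had 2.66, CCL28 2.62, CXCL10 1.23, CXCL16 1.02 and CCL5 none. For each of the 4 the stretch of 30 bases with most copies is shown, with ATTTA in capitals, from the GENCODE 29 transcripts at chr4:73870665-73870694 (plus), chr4:74097590-74097619 (minus), chr4:74037090-74037119 (minus) and chr4:73743108-73743137 (plus).
CXCL1: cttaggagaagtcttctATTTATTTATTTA
CXCL2: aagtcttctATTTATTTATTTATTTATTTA
CXCL3: ttacgagggttctacttATTTAtgtATTTA
CXCL8: taacctATTTAttATTTAtgtATTTATTTA

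CCL2, the monocyte chemoattractant that binds CCR2, was also higher. ASO-NC held 312 counts of it (6.68 CPM, 5.96 to 7.47) and ASO-1235 held 489 (12.5 CPM, 11.4 to 13.7), which is a ratio of 1.87 (1.62 to 2.17). In its decile of expression 1.32% of 1435 genes were at least as high. CCL20, the ligand of CCR6 on dendritic cells and lymphocytes, had 80 counts (1.71 CPM) and 138 counts (3.53 CPM), a ratio of 2.06 (1.55 to 2.75). In its decile of expression 3.48% of 1435 genes were at least as high. Its transcript has 35.5% GC, and without the GC and length trend its ratio was 1.80 (1.36 to 2.40). The intervals of CXCL8, CCL2 and CCL20 overlap. Within the libraries the change of CXCL8 against CCL2 was 1.31-fold (1.06 to 1.61, and 0.974 to 1.77 on halved counts), and against CCL20 it was 1.19-fold (0.858 to 1.64).

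**Figure D3:**
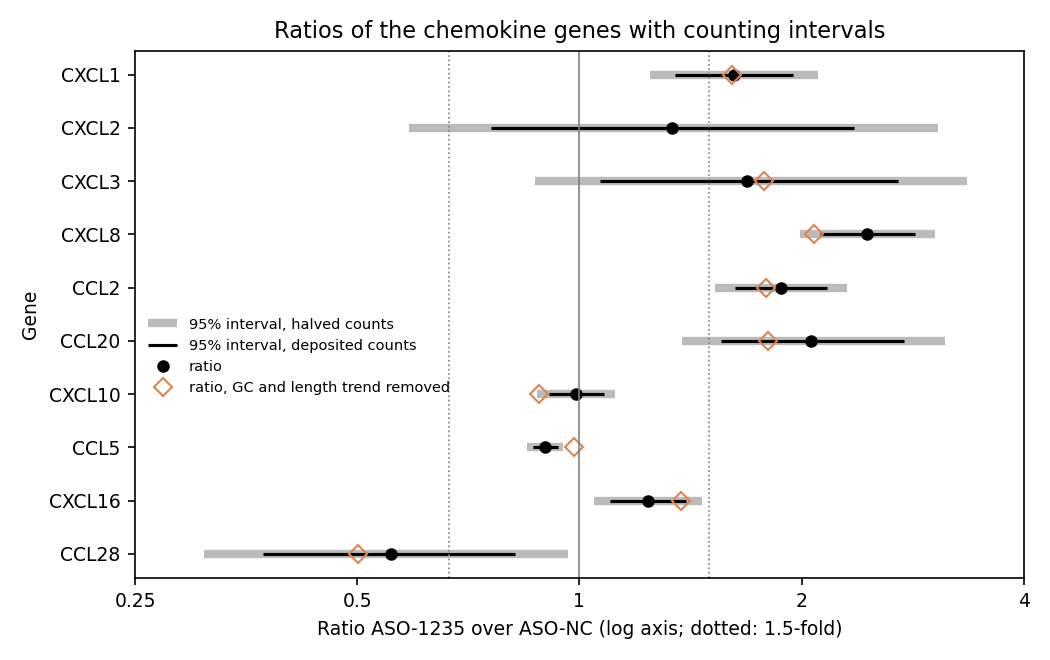
Ratio ASO-1235 over ASO-NC of each chemokine gene on a log axis, with the 95% interval for deposited counts (black) and halved counts (grey); open diamonds are ratios without that trend on GC content and length, and dotted lines mark 1.5-fold. CXCL8 lies furthest right at 2.45 and CCL28 is the single gene left of the lower dotted line, at 0.556.

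CXCL10 and CCL5, which attract T cells and are induced by interferon, were the most abundant members and did not reach 1.5-fold. CXCL10 had 1182 counts (25.3 CPM) and 979 counts (25.1 CPM), a ratio of 0.990 (0.909 to 1.08). The transcript has 37.5% GC, and without the GC and length trend the ratio was 0.880 (0.808 to 0.959). CCL5 had 5678 counts (122 CPM) and 4270 counts (109 CPM), a ratio of 0.899 (0.864 to 0.936), or 0.982 (0.944 to 1.02) with the trend removed. Of its 1316 windows of 50 bases 210 (16.0%) are shared with other genes. Its level thus also depends on how reads with several matches were counted. Both overlap a gene on the opposite strand and the strand setting is not given, but ART3 over CXCL10 had 0 counts in both libraries and the antisense gene over CCL5 had 4 in each. The CXCR3 ligands that flank CXCL10 were close to it: CXCL9 stood at 422 and 408 counts, or 1.16 (1.01 to 1.33) as a ratio, and CXCL11 at 563 and 494, or 1.05 (0.928 to 1.19). Counts of CXCL8 per 100 of CXCL10 went from 22.8 in ASO-NC to 56.6 in ASO-1235, a 2.48-fold difference (2.09 to 2.94), and counts of CCL2 per 100 of CCL5 from 5.49 to 11.5, a 2.08-fold difference (1.79 to 2.42).

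CXCL16, which is made as a membrane protein and released by the proteases ADAM10 and ADAM17, had 559 counts (12.0 CPM) and 579 counts (14.8 CPM). Its ratio of 1.24 (1.10 to 1.39) excluded 1 but did not reach 1.5-fold. Without the GC and length trend the ratio of CXCL16 was 1.37 (1.22 to 1.55), again short of 1.5-fold. It overlaps MED11 on the opposite strand, which had 306 and 245 counts. ADAM10 had a ratio of 1.10 (1.05 to 1.14) and ADAM17 of 0.981 (0.920 to 1.05). The CXCL16 receptor gene CXCR6 had 21 counts (0.450 CPM) and 39 counts (0.999 CPM after scaling, above 1 before it), a ratio of 2.22 (1.27 to 3.97). It reached 1 CPM in the ASO-1235 library alone and lost its call on halved counts.

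CCL28, a chemokine of mucosal and glandular epithelia that binds CCR10 and CCR3, was the single member called lower. ASO-NC held 86 counts of it (1.84 CPM, 1.47 to 2.27) and ASO-1235 held 40 (1.02 CPM, 0.732 to 1.39), which is a ratio of 0.556 (0.372 to 0.818). The interval on halved counts ran from 0.310 to 0.966. In its decile of expression 6.96% of 1436 genes were at least as low. CCL20, with a similar count in ASO-NC, went the other way, from 93.02 counts per 100 of CCL28 to 345, a 3.71-fold difference (2.27 to 6.08).

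**Figure D4:**
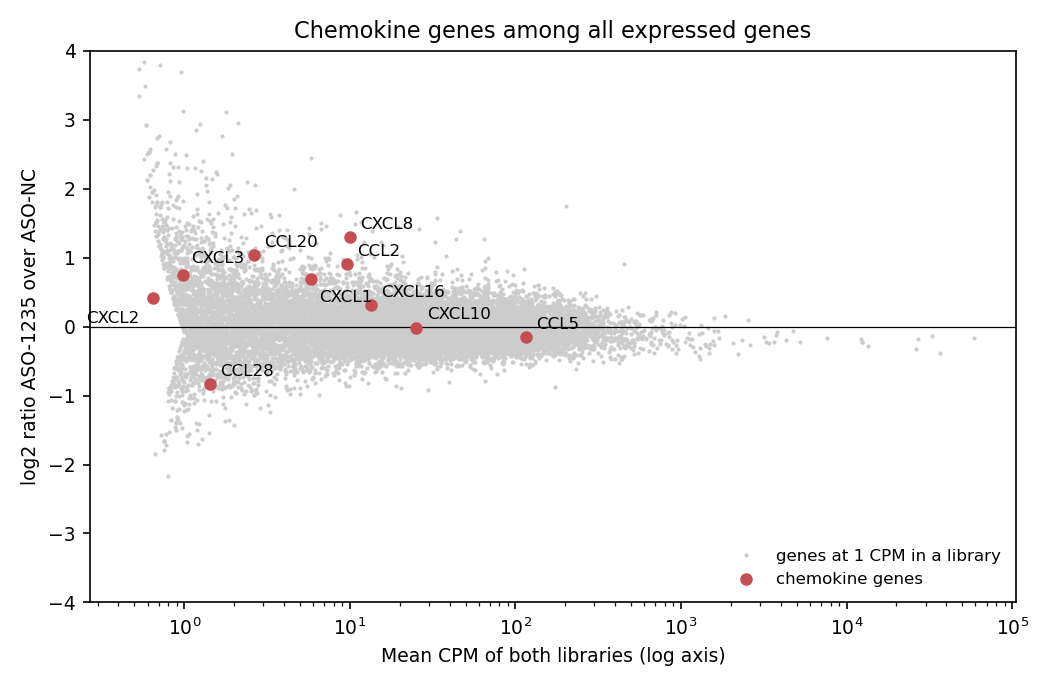
log2 ratio ASO-1235 over ASO-NC against the mean CPM of both libraries (log axis) for genes at 1 CPM in a library (grey) and the 10 chemokine genes (red); 5 genes lie outside the y axis. CXCL8 and CCL2 lie near the upper edge of the genes of like expression, and CXCL10 and CCL5 near 0.

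Together the 10 genes held 8434 counts of ASO-NC (180.6 CPM) and 7406 of ASO-1235 (189.7 CPM), a ratio of 1.05 (1.02 to 1.08). CCL5 made up 67.3% of these counts (Clopper-Pearson 95% interval 66.3 to 68.3) in ASO-NC and 57.7% (56.5 to 58.8) in ASO-1235. CXCL8 went from 3.20% (2.84 to 3.599) to 7.48% (6.89 to 8.10) of them. Per kilobase of merged exons CCL5 was first in both libraries, at 80.4 and 72.3 CPM per kilobase, and CXCL10 second at 21.5 and 21.3. In ASO-NC they were followed by CXCL16 at 4.28, CXCL1 at 3.42, CCL2 at 3.36 and CXCL8 at 2.54. The intervals of CXCL1 (2.97 to 3.92) and CCL2 (3.001 to 3.76) overlapped, so their order was not resolved. In ASO-1235 the next were CCL2 at 6.31, CXCL8 at 6.24, CXCL1 at 5.53 and CXCL16 at 5.31, with overlapping intervals from CCL2 (5.76 to 6.89) to CXCL1 (4.90 to 6.22). CCL20 stood at 1.07 and 2.22, and CXCL2 (0.371 and 0.495), CXCL3 (0.328 and 0.554) and CCL28 (0.407 and 0.226) were the lowest 3 in both libraries. Taken per kilobase of the longest transcript, CCL2 ranked above CXCL16 in ASO-NC (6.71 and 5.39).

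Over the 11 other lists 86 genes reached 1 CPM, of which 5 were called higher and 3 lower. Over all genes 6.40% were called higher and 2.95% lower, and the counts of the single lists are too small to set a list apart from these shares. Of the 5 higher genes 4 (CXCR6, TLR2, LIF and FAP) reached 1 CPM through the ASO-1235 library alone. Of 36 other chemokine ligands 8 reached 1 CPM and 0 were called in either direction, with a median log2 ratio of −0.03. The most abundant was CX3CL1, which encodes fractalkine, at 75.8 and 74.8 CPM, a ratio of 0.987 (0.939 to 1.04). The ligand furthest below 1 was CXCL14, an epithelial chemokine with a ratio of 0.726 (0.663 to 0.794), named after its value was seen. Listed at 0 counts in both libraries were 18 ligands, among them CXCL5, CXCL6, CCL3 and CCL7. Of 23 chemokine receptor genes 4 reached 1 CPM, 1 (CXCR6) was called higher and 0 lower. The most abundant was ACKR3, a scavenging receptor for CXCL12, at 36.2 and 33.1 CPM. CXCR2, the receptor of CXCL1 and CXCL8, was at 0 counts in both libraries.

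Of 14 genes of NF-kB subunits and inhibitors, all at 1 CPM, 1 was called higher, RELB, a subunit of the non-canonical pathway, with 434 and 732 counts (9.29 and 18.7 CPM) and a ratio of 2.02 (1.79 to 2.28). None was lower, and the median log2 ratio was 0.07. Of all genes 6.40% were called higher and 2.95% lower, and 1 of 14 is too few to set this list apart. RELA, the most abundant, had a ratio of 0.908 (0.879 to 0.939). Of 18 inducing cytokines, receptors and adaptors 12 reached 1 CPM, 1 was called higher and 0 lower, beside 6.40% and 2.95% of all genes. The higher gene was TLR2, a receptor for bacterial lipopeptides, with 26 and 44 counts. It reached 1 CPM in the ASO-1235 library alone and lost its call on halved counts. TNFRSF1A, which encodes the receptor of TNF, was the most abundant of this list, with a ratio of 0.800 (0.762 to 0.841). TLR3 had a ratio of 0.774 (0.587 to 1.02) and was not called. Without the GC and length trend its ratio was 0.657 (0.498 to 0.863), which met the lower call. The cytokine genes TNF, IL1A, IL1B and IL6 stayed under 1 CPM: TNF had 18 and 8 counts, IL1A 4 and 11, IL1B 14 and 0, and IL6 5 and 22.

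Among 14 genes of interferon signalling 13 reached 1 CPM, 0 were called higher and 2 lower, beside 6.40% and 2.95% of all genes. These encode type III interferons: IFNL1 stood at 678 and 360 counts, or 0.635 (0.557 to 0.723) as a ratio, and IFNL3 at 330 and 152, or 0.551 (0.451 to 0.669). Without the GC and length trend IFNL1 was at 0.719 (0.631 to 0.818), short of 1.5-fold, so its call was lost. IFNL3 kept its call at 0.639 (0.524 to 0.777). IFNL2 was not called, with a ratio of 0.762 (0.625 to 0.926). IFNL2 and IFNL3 are near copies, so the 3 genes were also summed, to 1278 and 684 counts, a ratio of 0.640 (0.582 to 0.703). Of 10 genes of AU-rich mRNA decay, all at 1 CPM, none was called in either direction, and the most abundant, ZFP36L1, had a ratio of 0.838 (0.821 to 0.855). None of the 7 expressed genes of chemokine cleavage and display was called, the most abundant being NDST1, an enzyme of heparan sulfate synthesis, at 0.903 (0.877 to 0.931).

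**Figure D5:**
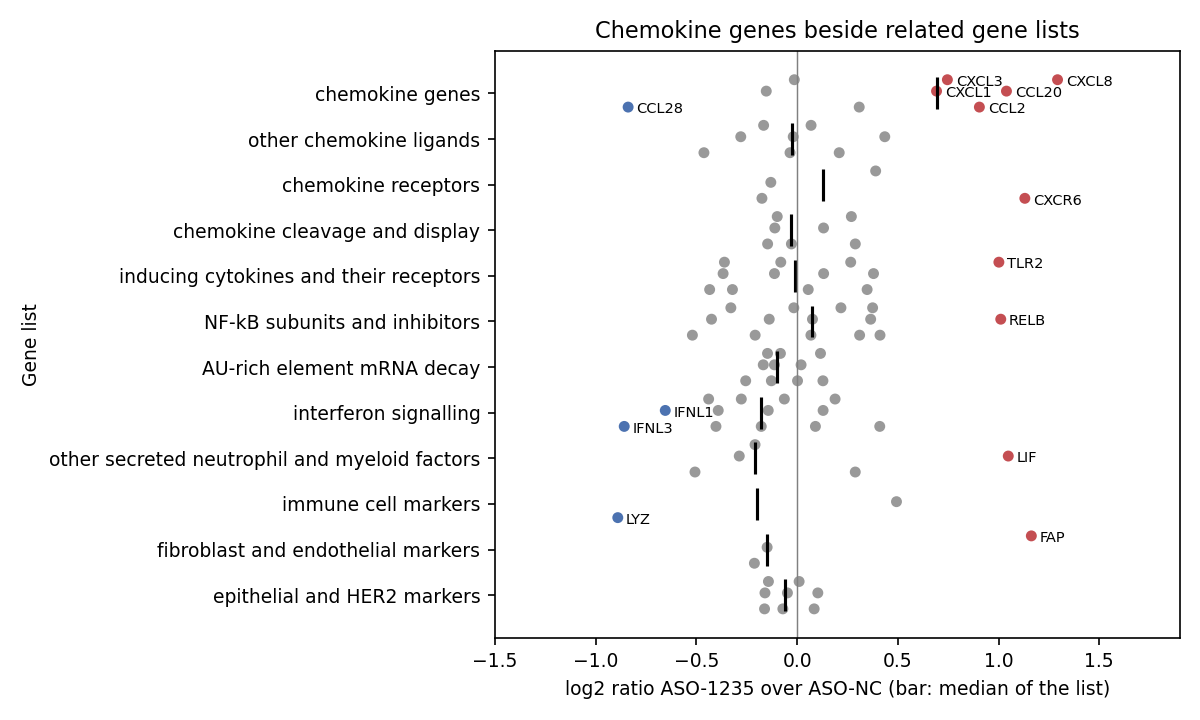
log2 ratio ASO-1235 over ASO-NC of each gene at 1 CPM in the chemokine genes (9 of the 10) and 11 related gene lists; black bars are list medians, red points were called higher and blue points lower. RELB is the single call among NF-kB genes, IFNL1 and IFNL3 those among interferon genes, and the other chemokine ligands have none.

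Leukocytes make several of these chemokines, so marker genes were read beside them. Of 16 immune cell markers 2 reached 1 CPM, LYZ with 98 and 44 counts, called lower, and ITGAM with 61 and 72. CD3D, FCGR3B, NKG7, GNLY and TPSAB1 were at 0 in both libraries. PTPRC, the general leukocyte marker, had 0 and 8 counts and CD3E, a T cell marker, 0 and 4. The summed levels of the list were 4.52 and 4.51 CPM, to which LYZ gave 2.10 and 1.13 CPM. CCR2, the leukocyte receptor of CCL2, had 4 and 19 counts, under 1 CPM in both libraries. PTPRC, CD3E and CCR2 were named after their values were seen, and the part of leukocyte RNA in the chemokine ratios was not tested. Of 12 fibroblast and endothelial markers 3 reached 1 CPM, and the sums were 53.8 and 49.7 CPM. COL1A1, with a ratio of 0.902 (0.844 to 0.964), made up most of it, FAP (28 and 53 counts) was called higher but reached 1 CPM in the ASO-1235 library alone, and PDGFRB was at 0. All 8 epithelial and HER2 markers, from EPCAM to ERBB2, were above 100 CPM in both libraries and none was called.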

How the data were processed

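The authors deposited raw counts per gene, whole numbers that were not normalized as far as the values show. Per the submitters' processing notes, the tools were STAR 2.7.11a and featureCounts 2.0.6 and the build was hg38. Which annotation release and strand setting were used is not given in the sources used here. All 62699 gene IDs with counts matched a name. For 1 further ID there were no counts, and 2 lines that name no gene were left out.

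Libraries were scaled with TMM (edgeR 4.0.16, R 4.3.3) over 14352 genes at 1 CPM or more of the unscaled total in at least 1 library, which gave ASO-NC a factor of 0.971 and ASO-1235 one of 1.03. Ratios have Clopper-Pearson 95% intervals given the sum of both counts. Reads amplified by PCR and lacking molecular identifiers are not independent, so intervals and floors cover counting error only. For log2 ratios a prior count of 0.5, in proportion to library size, was added. The members and lists were chosen with earlier results of these data known. Genes named outside the members are the target, genes of the lists called at 1.5-fold, the most abundant of each list (1 of which is not reported here), and neighbours, overlapping genes or list members named for their role or after their values were seen.

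Lengths, GC content, 3′ UTRs and positions came from GENCODE 29, with the longest transcript, or the longest coding one for UTRs, standing for each gene. Promoters came from RefSeq. Alternatives were DESeq2 1.42.0 size factors, total count, upper quartile, halved counts, other minimums and prior counts, a fold of 2, 1 CPM in both libraries (chosen after seeing the data), and removal of a robust spline trend on GC content and transcript length (statsmodels 0.14.6), known for 97.7% of genes at 1 CPM. The calculation was tested on simulated counts that held counting error alone, with mates counted singly or in pairs. That test cannot speak to spread between replicate libraries. Tables were handled with pandas 2.3.3 and numpy 2.4.6, and intervals computed with scipy 1.17.1, in Python 3.11.15.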

Additional observations from a re-analysis of the deposited data

How the results depend on the processing

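No paired analysis was possible because each group has 1 library. The ratios of the 10 genes were recomputed under 5 alternatives, halved counts, 3 other scalings and removal of the GC and length trend, except CXCL2, which has no trend value. No ratio of a called gene changed sides of 1, and the single call lost was that of CXCL3 on halved counts. CXCL8 ranged from 2.08 to 2.60, CCL2 from 1.79 to 1.99, CCL20 from 1.80 to 2.19, CXCL1 from 1.61 to 1.72 and CCL28 from 0.501 to 0.590. CXCL10 lay between 0.880 and 1.05, CCL5 between 0.899 and 0.982 and CXCL16 between 1.24 and 1.37. The count of genes called higher was 5, and 4 on halved counts (5.20% of all genes called) and at 1 CPM in both libraries (3.81%). It was 3 with a minimum of 5 CPM, which leaves 6 genes (2.59% of all genes called), and 2 at 2-fold (2.53%). The count called lower was 1, and 0 with a minimum of 5 CPM and 0 at 2-fold. The median log2 ratio ranged from 0.50 at a minimum of 5 CPM to 0.78 with scaling by total count. Over the 86 genes of the other lists 5 were called higher and 3 lower, beside 6.40% and 2.95% of all genes. Among the 80 genes at 1 CPM in both libraries, a restriction added after the data were seen, 1 was called higher (3.81% of all genes). On halved counts 2 were called higher (5.20%), and among the 66 genes at 5 CPM 1 was (2.59%). With no minimum 137 genes had counts, of which 12 were called higher and 5 lower. The share of all genes was not computed at this setting, so these counts cannot be judged. It also admits genes with few counts, such as IL6 with 5 and 22. At 2-fold 0 were called lower (0.516%). Depth limits CXCL2, CXCL3 and CCL28 most, since each had at most 86 counts in a library.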

Other observations

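Other secreted factors of neutrophils and myeloid cells were read beside the chemokines. Of 11 such genes 5 reached 1 CPM, 1 was called higher and 0 lower, beside 6.40% and 2.95% of all genes. LIF and S100A8 (2 genes) had a ratio above 1, and CSF1, S100A9 and LCN2 (3 genes) a ratio below 1. The lowest log2 ratio of the list was −0.51. LIF, a cytokine of the interleukin 6 family, had 24 and 42 counts (0.514 and 1.08 CPM), a ratio of 2.09 (1.24 to 3.61), reached 1 CPM in the ASO-1235 library alone and lost its call on halved counts. CSF1, the growth factor of macrophages and the most abundant of the list, had 130 and 94 counts, a ratio of 0.865 (0.656 to 1.14). S100A8, a calcium-binding protein of neutrophils and stressed epithelium, had 88 and 90 counts, a ratio of 1.22 (0.901 to 1.66). CSF2, which encodes the granulocyte-macrophage growth factor, was at 0 counts in both libraries. MIF was listed at 0 counts in both too. How reads that match several genes were counted is not given, so this 0 does not show that MIF RNA was absent.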
